A study of Mus musculus with 46 samples.

Results

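This section describes 7 genes for transcription factors of the osteoblast lineage in single cochlear cells: Runx2, Sp7, Dlx5, Dlx6, Dlx3, Msx1 and Msx2. They were taken by symbol from the deposited table, in which all 7 have a row among 29871 genes, and followed over all 46 cells. The cells came from the cochlea of C57BL/6 mice at postnatal day 10. The mice were heterozygous, with the genotype Dio2creERt2:Ai6, in which the Dio2 gene drives a Cre enzyme that tamoxifen switches on and Ai6 is a reporter that makes a green fluorescent protein once Cre has acted. Dio2 encodes type 2 deiodinase, which makes active thyroid hormone, and the study asked which cochlear cells express it. Fluorescent cells were picked by hand with a suction pipette, so no share given below is a share of the tissue, and a cell is marked when Cre was active in it or in its precursor. All cells carry the same group label and none is tied to an animal. They are therefore treated as 1 sample, without replicates and without tests.

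Osteoblasts are the cells that build bone, here the bony wall around the cochlea. Runx2 is the factor that commits mesenchymal precursors to this lineage, and Sp7 (osterix) acts after Runx2 and is needed for mature osteoblasts. The distal-less genes Dlx3, Dlx5 and Dlx6 and the muscle segment homeobox genes Msx1 and Msx2 encode homeodomain proteins that respond to bone morphogenetic protein (BMP) signals in skeletal precursors. Dlx5 and Dlx6 are neighbours that share enhancers. Ibsp encodes bone sialoprotein, a matrix protein of mineralizing bone, and serves below to mark cells that make bone matrix.

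Short DNA motifs known for Runx and homeodomain proteins were looked up before the genes of the factors and of bone matrix. The core of Runx sites was searched as ACCACA and a homeodomain core as TAATTA or TAATTG, on both strands, in the 250 bases before the RefSeq start (GRCm38.p6). A window was given for 3 of the 7 factors (Runx2, Msx1 and Msx2) and for 4 of 6 matrix genes (Ibsp, Alpl, Dmp1 and Spp1), 10 windows in all, some genes having several starts. Windows for Sp7, Dlx5, Dlx6, Dlx3, Bglap2 and Col1a1 were not used here. The 6 matches follow as 30 bases 5′ to 3′ on the gene's strand, with the match in capitals.
Runx2, chr17:44814690-44814719, minus strand: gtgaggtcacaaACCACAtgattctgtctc
Dmp1, chr5:104202441-104202470, plus strand: agtcatttgagaACCACAagagctttttag
Spp1, chr5:104434971-104435000, plus strand: tttttttttttaACCACAaaaccagaggag
Ibsp, chr5:104299077-104299106, plus strand: ctcctcacccttCAATTAaatcccacaatg
Msx2, chr13:53472950-53472979, minus strand: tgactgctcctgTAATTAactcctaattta
Spp1, chr5:104436058-104436087, plus strand: agttcgttgcttTAATTActcgattactgt
The Runx core was thus found before a RefSeq start of Runx2 itself and of 2 matrix genes. The homeodomain core was found before a start of Ibsp, of Msx2 and a second start of Spp1. Runx2 and Msx2 lie on the minus strand, and their GENCODE M21 spans begin at 44814797 and 53473074. Their 2 matches are therefore inside these spans, before a RefSeq start that lies further in, and not upstream of the whole gene. Of all 32851 windows of this length, 14.05% held the Runx core and 11.3% the homeodomain core, so a match is a description of these letters only.

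Each cell had 2522853 to 10350249 reads in the listed genes, and 1 read was worth 0.0870 to 0.347 CPM, the authors' unit of reads scaled to the size of the library. A factor is called on in a cell at 10 CPM or more. Ibsp itself was never at 0: it stood at 18.6 to 107 CPM in the 34 cells under 1000 CPM, and at 7618 to 145198 CPM in the other 12. The threshold of 1000 CPM therefore lay in a wide gap, between cell 42 at 107 CPM and cell 5 at 7618 CPM. The 12 Ibsp-high cells had 7 to 9 of 9 osteoblast markers at 10 CPM or more, among them Ibsp, which set the classes. Ibsp reached 10 CPM in all 46 cells and the marker Spp1 in 45, so these 2 do not separate the classes. Of the 34 others, 4 carried the macrophage gene C1qa at 100 CPM or more and 6 or 7 of 7 macrophage markers, and 30 did not. Of the 9 osteoblast markers, these 30 cells had 2 to 5 at 10 CPM or more and the 4 macrophage-marked cells 2 to 4. The Ibsp-high cells were numbered 1 to 12 and the macrophage-marked cells 43 to 46. What set this numbering is not given in the sources used here, so an effect of collection order cannot be told apart from the class of cell.

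Runx2 (NCBI Gene 12393, chromosome 17, 44495987 to 44814797, minus strand, GRCm38) was on in 14 of 46 cells (30.4%, exact 95% interval 17.7% to 45.8%). In the 12 Ibsp-high cells it ranged from 0 to 1269.9 CPM with a median of 330 CPM, and 10 of the 12 were on, each at 242 CPM or more. Cell 1 had 0 reads of Runx2, which allows up to 0.594 CPM, and cell 2 had 1 read. In the 30 other cells without macrophage markers the median was 0.426 CPM, and 4 cells were on at 59.4 to 328 CPM. The 4 macrophage-marked cells had at most 0.387 CPM. No cell lay between 1.22 and 59.4 CPM, so on and off cells were well apart, but the Ibsp classes overlapped. Runx2 overlaps the genes Supt3 and Runx2os1 on the opposite strand. Since the use of strand is not given, reads from shared exons cannot be told apart.

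Sp7 (NCBI Gene 170574, chromosome 15, 102356606 to 102367182, minus strand) was on in 16 of 46 cells (34.8%, 21.4% to 50.2%), the most of the 7 factors. It ranged from 0.594 to 2593.6 CPM in the Ibsp-high cells, with a median of 1198 CPM and 11 of 12 cells on. Cell 1 was again the exception, with 3 reads of Sp7 beside 11170 CPM of Ibsp. Of the 30 other cells 5 were on, at 18.98 to 726 CPM, and the rest stayed at or below 1.88 CPM. Macrophage-marked cells had up to 2.83 CPM. A further 9 cells lay between 1 and 2.83 CPM, 3 of them macrophage-marked, and these low values are not read as expression.

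Dlx5 (NCBI Gene 13395, chromosome 6, 6877805 to 6882085, minus strand) was the factor whose Ibsp classes did not overlap. It was on in all 12 Ibsp-high cells, at 158 to 1459 CPM with a median of 406 CPM. The highest value in any other cell was 61.9 CPM, in cell 42, followed by 47.7 CPM in cell 20. All remaining cells were at or below 1.47 CPM. Only 7 of 11447 genes tested (0.0612%) had every Ibsp-high cell above every other cell. The other 6 were Ibsp itself, Alpl (a phosphatase of mineral deposition), the osteocalcin genes Bglap, Bglap2 and Bglap3, whose near-identical copies can share reads, and the parathyroid hormone receptor gene Pth1r. Dlx5 was the only transcription factor gene among these 7. Cells 1 and 2, which lacked Runx2, had Dlx5 at 762 and 264 CPM.

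Dlx6 (NCBI Gene 13396, chromosome 6, 6863334 to 6868568, plus strand) ends 9236 bases from the end of Dlx5 and was much lower. It was on in 7 of 46 cells (15.2%, 6.34% to 28.9%), 6 of them Ibsp-high, with a highest value of 69.5 CPM in cell 4. Cell 2 was just under the limit at 8.97 CPM (46 reads) and cell 6 just over it at 10.1 CPM. Every cell with Dlx6 on also had Dlx5 on, while 7 of the 14 cells with Dlx5 had Dlx6 off. In the 7 cells with both, Dlx6 CPM was 1.39% to 26.4% of Dlx5 CPM, with a median of 12.7%. The whole span of Dlx6 lies inside the antisense gene Dlx6os1. Since the use of strand is not given, reads from any shared exons cannot be told apart. The levels of Dlx6 in this report carry that limit. Dlx6os1 was at 273 to 409 CPM in 4 cells (1, 2, 9 and 10), all Ibsp-high and all with Dlx5 on, and at or below 0.233 CPM in every other cell. Dlx6 was on in 1 of these 4 cells, and in 6 cells Dlx6 was on with Dlx6os1 below 10 CPM.

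The remaining 3 factors were on in few cells. Dlx3 (chromosome 11, 95120119 to 95125296, plus strand), a homeobox gene best known in skin, teeth and bone, was at 226 CPM in cell 20, 189 CPM in cell 11 and 15.4 CPM in cell 9, and at or below 0.585 CPM elsewhere. Msx1 (chromosome 5, 37820485 to 37824583, minus strand), a gene of craniofacial mesenchyme, was at 215 CPM in cell 42, 214 CPM in cell 11 and 133 CPM in cell 19. Its highest value in the other 43 cells was 0.645 CPM. Msx2 (chromosome 13, 53466884 to 53473074, minus strand), a gene of skull growth, was on only in cell 10, at 90.5 CPM, and 44 of 46 cells had no read of it. Of these 3 genes Dlx3 and Msx1 were found on both sides of the Ibsp threshold. Msx1 and Msx2 were on together in 0 cells.

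**Figure D1:**
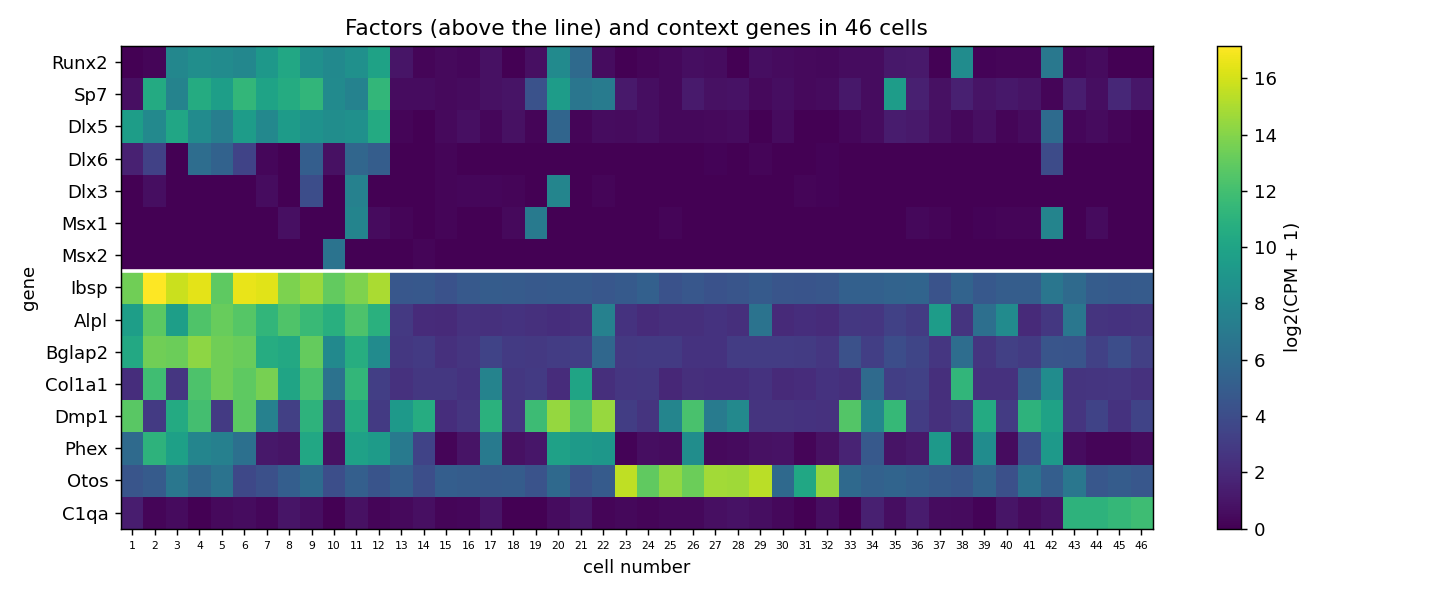
Colour gives log2(CPM + 1) for the 7 factors (above the white line) and 8 context genes (below it) in the 46 cells, by cell number along the horizontal axis. Dlx5 is on in all of cells 1 to 12, Sp7 in all but cell 1 and Runx2 in all but cells 1 and 2.

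Levels of different genes can be compared only per length, here as CPM per kb of the longest coding GENCODE M21 transcript. In the 12 Ibsp-high cells the median was 387 CPM per kb for Sp7, 285 for Dlx5, 51.1 for Runx2 and 4.30 for Dlx6. Sp7 was above Dlx5 on this scale in 7 of 12 cells, and their ranges overlapped widely (0.192 to 837 against 111 to 1026 CPM per kb). Dlx5 was above Runx2 in 12 of 12 cells and above Dlx6 in 12 of 12, and Runx2 was above Dlx6 in 10 of 12. The order of Sp7 and Dlx5 was therefore not the same in every cell, while that of Dlx5 and Runx2 was the same on this scale. It rests on the lengths used, 6463 bases for Runx2 and 1423 for Dlx5, and which transcripts were counted is not given. In CPM not divided by length, Runx2 was above Dlx5 in cells 4, 5, 7 and 8.

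Between the Ibsp-high cells and all 34 others, 6.25% of 11447 genes were higher and 3.91% lower by at least 2 on the log2(CPM + 1) scale, a size used in place of a test. The means for Dlx5 were 8.87 ± 0.95 (SD over 12 cells) and 0.74 ± 1.32 (SD over 34 cells), a difference of 8.13. Sp7 differed by 7.29, Runx2 by 6.07 and Dlx6 by 2.94. The spread over the Ibsp-high cells was larger for Sp7 (SD 2.98) and Runx2 (SD 3.43), and each includes cells that lacked the factor. Differences of Dlx3, Msx1 and Msx2 were 0.79, 0.23 and 0.54. These 3 genes did not pass the filter of 1 CPM in at least 5 cells, and the other 4 passed it largely through the Ibsp-high cells, so the 4 of 7 past the size are no measure of how the factors as a set compare with other genes. Without the macrophage-marked cells the 4 differences were 8.07, 7.21, 5.93 and 2.92.

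**Figure D2:**
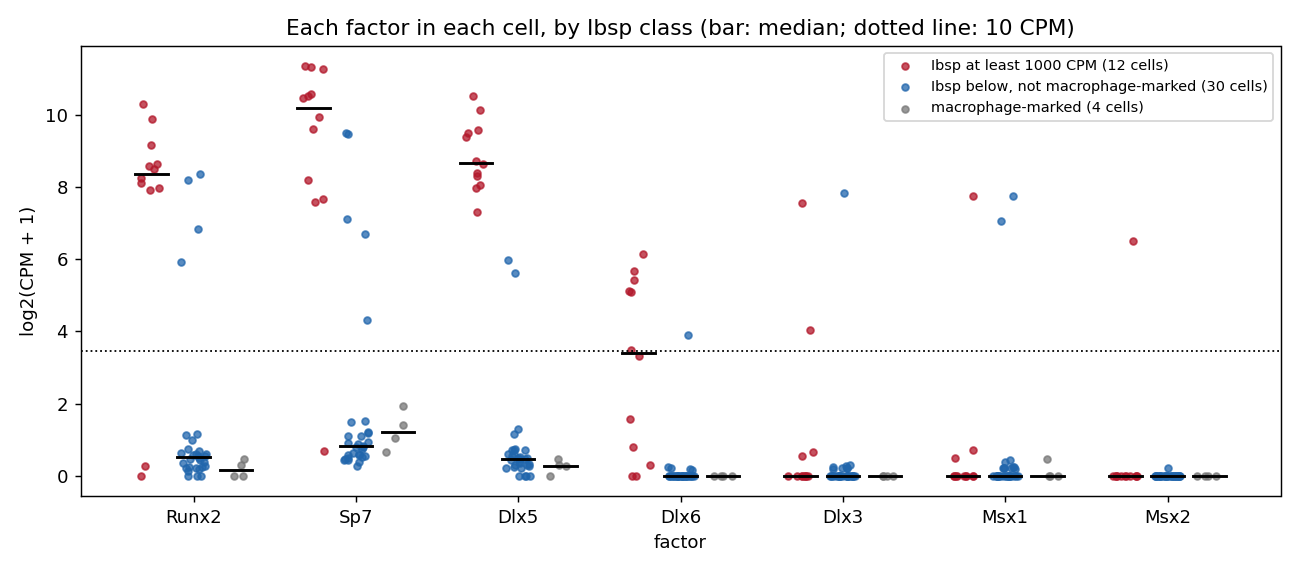
Each point is 1 cell, at log2(CPM + 1) of the factor on the horizontal axis, for 12 Ibsp-high cells (red), 30 other cells (blue) and 4 macrophage-marked cells (grey), with bars at the medians and a dotted line at 10 CPM. Dlx5 separates the red from the blue points, with 158 CPM as the lowest red and 61.9 CPM as the highest blue value, whereas red points of Runx2 and Sp7 occur among the off cells.

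The factors were found in 13 combinations over the 19 cells (41.3%, 26.998% to 56.8%) that had any of them on. The other 27 cells had none, among them all 4 macrophage-marked cells. Every one of the 19 cells had at least 1 of Runx2, Sp7 and Dlx5. All 3 of these were on together in 11 cells (23.9%, 12.6% to 38.8%), 10 of them Ibsp-high. The most frequent combination, Runx2 with Sp7, Dlx5 and Dlx6, was found in cells 4, 5, 6 and 12. Runx2 with Sp7 and Dlx5 alone was found in cells 3, 7 and 8. Cell 9 added Dlx3 to the 4 factors, cell 11 added Dlx3 and Msx1 for 6 factors in all, and cell 10 had Msx2 with Runx2, Sp7 and Dlx5. Cell 2 had Sp7 and Dlx5, and cell 1 had Dlx5 alone. The Ibsp-high cells had 1 to 6 factors on, with a median of 4.

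Pairs of factors overlapped in most but not all of their cells. Runx2 and Sp7 were on together in 12 cells, which is 85.7% of the Runx2 cells and 75% of the Sp7 cells. Runx2 and Dlx5 also shared 12 cells, 85.7% of each. Sp7 and Dlx5 shared 12 cells, 75% of the Sp7 cells and 85.7% of the Dlx5 cells. The sets of 12 were not identical, since 11 cells had all 3 factors. Over 46 cells Spearman's correlation of the log2 levels was 0.55 for Runx2 and Sp7, 0.57 for Sp7 and Dlx5, 0.44 for Runx2 and Dlx5 and 0.51 for Dlx5 and Dlx6. Pearson's r for the same pairs was 0.77, 0.78, 0.79 and 0.71. Within the 12 Ibsp-high cells Spearman's correlation was 0.36, 0.11, -0.01 and -0.27, all lower than over the 46 cells. Of 21 pairs these 4 are given. The cells differ in depth, and no p is given.

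**Figure D3:**
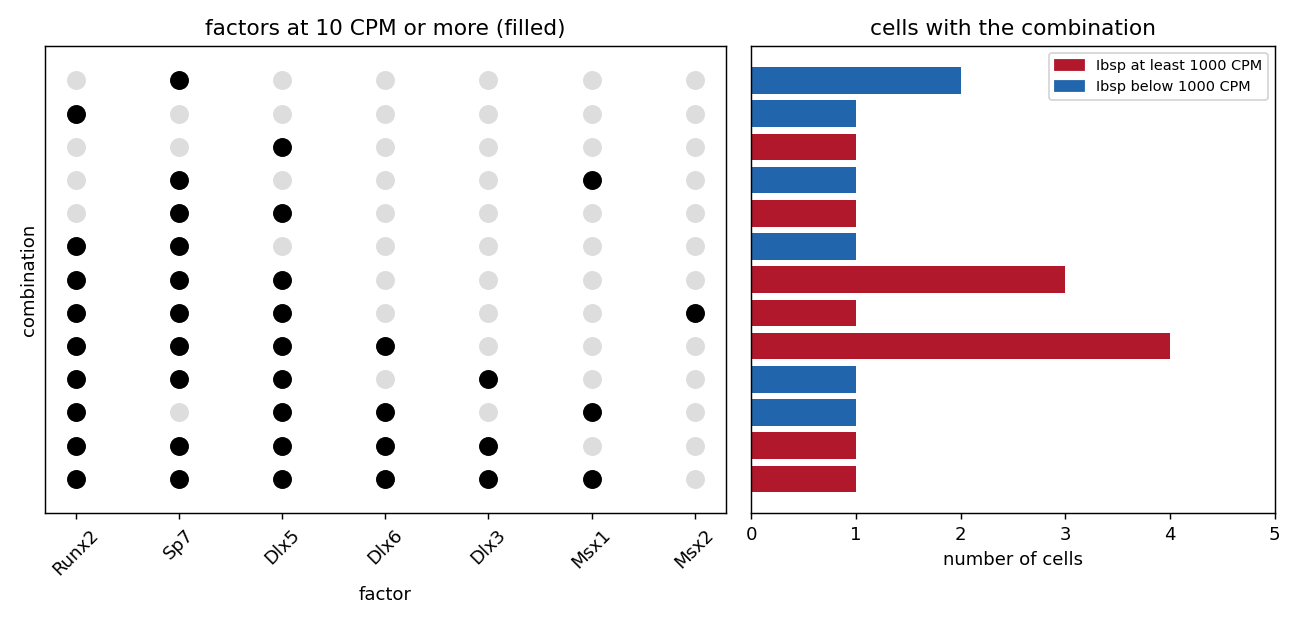
Each row is 1 combination of factors, with filled dots for those at 10 CPM or more (left) and the number of cells with it (right, red for Ibsp at least 1000 CPM and blue for Ibsp below). The longest bar is 4 cells with Runx2, Sp7, Dlx5 and Dlx6, and no combination is shared between red and blue.

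Of the 34 cells below 1000 CPM of Ibsp, 7 had factors on, and 2 of them had at least 3. Cell 20 had 4 factors: Sp7 (704 CPM, 4350 reads), Runx2 (292 CPM, 1803 reads), Dlx3 (226 CPM) and Dlx5 (47.7 CPM). Its Ibsp, 27.7 CPM, was inside the range of the other cells below the threshold. Its Alpl was 3.72 CPM and its Bglap2 7.44 CPM, while the osteocyte matrix gene Dmp1 reached 21979.5 CPM and Phex, a phosphate regulating gene of osteocytes, at 898 CPM. Cell 42 had Runx2 at 114 CPM, Dlx5 at 61.9 CPM, Dlx6 at 13.9 CPM and Msx1 at 215 CPM, with 1 read of Sp7. Its Dmp1 was 939 CPM, its Phex 633 CPM and its Col1a1 329 CPM, with Alpl at 5.75 CPM and Bglap2 at 21.6 CPM. Of 9 osteoblast markers, 5 were at 10 CPM or more in cell 42. Cell 42 also held 4 of 6 general fibroblast markers at 100 CPM or more, such as Dcn at 6940 CPM and Lum at 4856 CPM. Its Dlx2, a paralog found on in no other cell, was at 90.6 CPM. Whether cell 42 was a single cell was not tested.

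The other 5 cells had 1 or 2 factors. In cell 21 the levels were 103 CPM for Sp7 and 59.4 CPM for Runx2, with 1044 CPM of the bone collagen gene Col1a1. Cell 38 had Runx2 alone at 328 CPM, with the highest Col1a1 (2498 CPM) and Bglap2 (69.2 CPM) of the 34 cells and Dmp1 at 6.36 CPM. Cell 35 had Sp7 alone at 726 CPM (2474 reads), with the cartilage factor gene Sox9 at 2713 CPM and Dcn at 38531 CPM. In cell 22, Sp7 (139 CPM) was found with Dmp1 (23208 CPM) and some Alpl (181 CPM). Cell 19 had Msx1 at 133 CPM and the lowest Sp7 among on cells, 18.98 CPM (93 reads). Alpl stayed at or below 181 CPM in all 7, below the 770 CPM that was its lowest value in the Ibsp-high cells. The 7 cells had 3110332 to 6415499 reads, and the 23 cells with neither factors nor macrophage markers had 2921064 to 10350249, so they did not stand apart in depth.

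**Figure D4:**
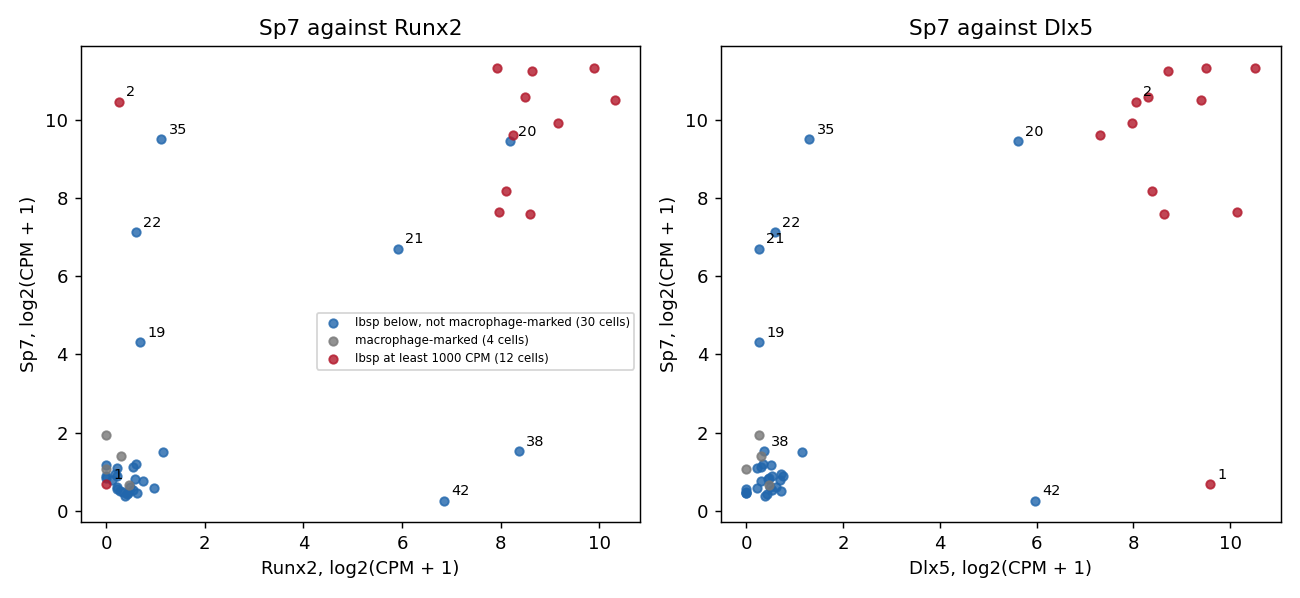
Each point is 1 cell, with log2(CPM + 1) of Sp7 on the vertical axis against Runx2 (left) and Dlx5 (right), coloured by Ibsp class, with numbers beside selected cells. Cells 2, 19, 22 and 35 have Sp7 without Runx2, cells 38 and 42 have Runx2 without Sp7, and cell 1 has Dlx5 at 762 CPM with neither.

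The 5 cells with Sp7 on and Ibsp below 1000 CPM all had Dmp1 at 1000 CPM or more, from 2936 to 23208 CPM. Of the 25 other cells without macrophage markers, 6 reached 1000 CPM, and their median was 7.68 CPM. The ranges overlapped, since the highest of the 25 was 6047 CPM. This split was chosen after the values had been seen. On the log2 scale the difference was 6.86, and 8.46% of all genes were higher and 5.64% lower by at least 2 in the same split. Phex was at 537 to 898 CPM in 3 of the 5 and at or below 1.02 CPM in the other 2. In the 25 cells Phex was at 0.140 to 633 CPM, with 6 of them at 100 CPM or more, so the ranges overlapped. Of 8 osteocyte genes tested, 3 were higher and 0 lower by at least 2. The osteocyte genes Mepe, Sost and Fgf23 were below 10 CPM in all 30 cells. Other markers moved with this split. Sox9 was at 427 to 2713 CPM in the 5 cells and at 1.13 to 2227 CPM in the 25 (median 236 CPM), a difference of 2.90, and the cartilage collagen gene Col2a1 differed by 2.93. Of 7 chondrocyte markers, 3 to 5 were at 10 CPM or more in the 5 cells, against 1 to 6 in the 25. The fibrocyte genes Otos and Car3 differed by -3.31 and -3.06, and Otos was at 100 CPM or more in 0 of the 5 and 9 of the 25. The summed level of 8 fibrocyte markers was 1118 to 45421 CPM in the 5 cells and 637 to 172577 CPM in the 25, with 5 to 7 of them at 10 CPM or more in both. Otos, Car3, the fibrocyte marker Coch and Col2a1 were above 10 CPM in every one of these cells. Macrophage-marked cells also had 4 of the 8 fibrocyte and 1 to 3 of the 7 chondrocyte markers at that level. Both marker counts therefore separate cells little. The part of these markers in the result was not tested. Alpl was below 10 CPM in 4 of the 5. Within the 12 Ibsp-high cells Sp7 and Dmp1 did not go together, with a Spearman's correlation of 0.007. Cells 6 and 12 had Sp7 at 2594 and 2573 CPM, with Dmp1 at 7194 and 6.59 CPM. Cell 1, with Sp7 at 0.594 CPM, had Dmp1 at 6973 CPM.

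The 4 cells with Runx2 on and Ibsp below 1000 CPM were split in the same way, again after the values had been seen. Col1a1 was at 100 CPM or more in 3 of the 4, up to 2498 CPM, and in 1 of the other 26 cells, at 206 CPM, and the ranges overlapped because cell 20 had 3.56 CPM. Car3, a carbonic anhydrase gene high in many of these cells, was at 32.8 to 72.9 CPM in the 4 and had a median of 14146 CPM in the 26. Of 8 osteocyte genes tested, 4 were higher and 0 lower by at least 2: Phex (4.54), Dmp1 (3.12), Fam20c (3.03) and Npnt (2.16). The ranges overlapped for each of the 4 genes, and Dmp1 reached 1000 CPM in 2 of the 4 cells and 9 of the 26. Other genes moved in both directions. Runx1 differed by 5.11, Coch by -5.39, and the otic mesenchyme genes Tbx18 and Pou3f4 by -3.68 and -2.92. Sox9 differed by -2.59, against 2.90 in the Sp7 split. Cells 20 and 21 are in both the Runx2 and the Sp7 split. Otos was at 100 CPM or more in 0 of the 4 and 9 of the 26. In this split 10.8% of all genes were higher and 6.16% lower by at least 2.

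**Figure D5:**
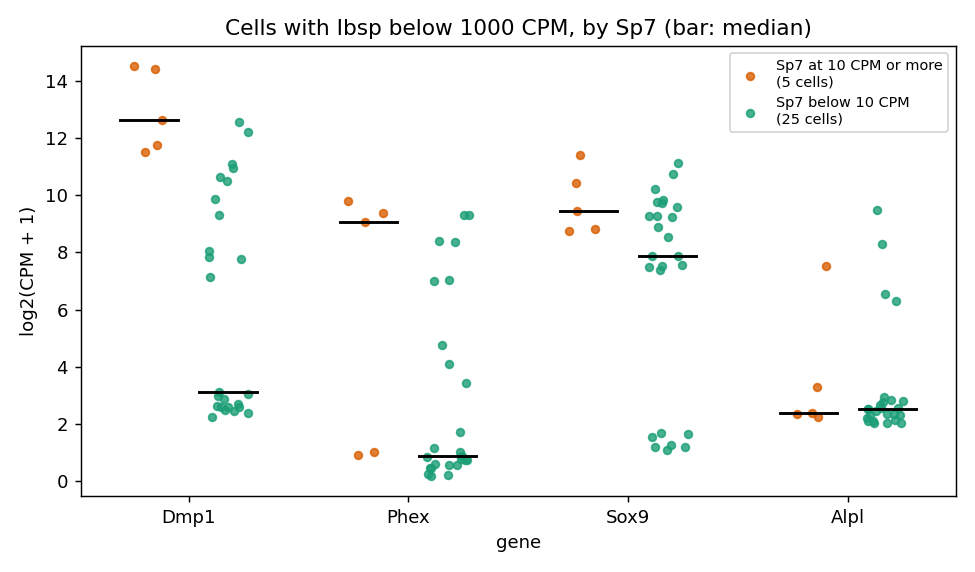
Points are the 30 cells below 1000 CPM of Ibsp and without macrophage markers, at log2(CPM + 1) of 4 genes, split by Sp7 at 10 CPM (orange, 5 cells; green, 25 cells), with bars at the medians. All orange points of Dmp1 lie at 2936 CPM or more, and the green points spread from 3.76 to 6047 CPM.

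Within the 12 Ibsp-high cells, factor levels did not follow Ibsp closely. Spearman's correlation with Ibsp was 0.50 for Sp7, 0.02 for Dlx5, 0.04 for Dlx6 and -0.14 for Runx2. Among 52 factor and gene pairs looked at in these 12 cells, the highest was Dlx5 with Coch, the gene of the inner ear matrix protein cochlin, at 0.83, and the lowest was Dlx5 with Col1a1 at -0.73. Of all genes with a value, 0.484% had a correlation of at least 0.7 with Dlx5 in these cells and 0.818% had -0.7 or below. Dlx5 was highest in cells 12 and 3, at 1459 and 1123 CPM, where Col1a1 was 7.99 and 5.58 CPM and Coch 32569 and 30509 CPM. It was lowest in cell 5, at 158 CPM, with Col1a1 at 11128 CPM and Coch at 510 CPM. The relations are over 12 cells of 1 sample and are given as a description.

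Genes whose pattern over the 46 cells was most like that of a factor were ranked by Spearman's correlation. For Sp7 these were Bglap3 (0.76), Bglap (0.72), Sgms2 (0.70), Smpd3 (0.70) and Dpysl3 (0.69), and 0.21% of all genes reached 0.6. Sgms2 and Smpd3 encode enzymes of sphingomyelin metabolism. For Dlx5 they were Slit3 (0.72), Dpysl3 (0.69), Lifr (0.68), Ibsp (0.68) and Gpc1 (0.67), and 0.122% reached 0.6. For Runx2 they were Sec31a (0.68), Bambi-ps1 (0.67), Sh3rf1 (0.67), Pcdh18 (0.63) and Ptprd (0.63), and 0.0699% reached 0.6. Bambi-ps1 is a pseudogene that can share reads with Bambi, and Sh3rf1 had a median of only 1.36 CPM in the Ibsp-high cells. By Pearson's r the gene most like Dlx5 was Ibsp (0.95), which set the classes. This r follows the split between the classes, since within the 12 Ibsp-high cells it was 0.06. By Pearson's r over the 46 cells Dlx5 (0.79) and Sp7 (0.77) ranked next to Runx2 after Unc5b (0.80).

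Other genes of the lineage were compared between the 12 Ibsp-high cells and the 30 others without macrophage markers, where 6.44% of genes were higher and 4.66% lower by at least 2 and the median of all genes was 0.09. Of 32 other transcription factor genes of the lineage, 25 were tested, 10 were higher and 1 lower, with a median of 1.47. Mef2c, which acts in osteocytes and muscle, differed by 7.16 and was on in 12 of 12 Ibsp-high cells, but also in 7 of 30 other and 4 of 4 macrophage-marked cells. Vdr, the vitamin D receptor gene, differed by 4.44, Creb3l1 by 3.96, Zeb2 by 3.89 and Bhlhe40 by 3.45. Vdr was on in 7 of 12 Ibsp-high and 2 of 30 other cells, so it passed the filter largely through the Ibsp-high cells. The lower gene, named after its value was seen, was the BMP response gene Id1 (-2.92).

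Of 17 genes for partners and repressors of the factors, 5 were higher and 0 lower, with a median of 0.40. They were Hes1 (4.07), Tle2 (2.46), Smurf2 (2.27), Hdac5 (2.08) and Cbfb (2.14), the gene of the subunit that Runx proteins need to bind DNA well. Cbfb was on in 9 of 12 Ibsp-high and 15 of 30 other cells. Among 14 matrix and mineral genes tested, 10 were higher and 0 lower. Ibsp, which set the classes, is among them. Some of the 10 were on almost only in Ibsp-high cells, such as Panx3 (11 of 12, and 0 of 30 others) and Phospho1 (10 of 12, and 1 of 30). The 10 of 14 is therefore no measure of how these genes as a set compare with other genes. Of 12 genes tested for BMP ligands, receptors and inhibitors, 5 were higher and 0 lower, with the decoy receptor gene Bambi at 4.05, Bmp3 at 3.05, Bmp2 at 2.58, Smad6 at 2.37 and Bmpr2 at 2.12. Bmp3 was on in 5 of 12 Ibsp-high cells and at most 0.463 CPM in any other cell. It therefore passed the filter only through the Ibsp-high cells and had to be higher. Bmp2 was on in 5 of 12 Ibsp-high and 1 of 30 other cells. The 5 of 12 genes is thus no measure of how this list compares with other genes. Of 20 Wnt and hedgehog genes tested, 3 were higher (Wif1 at 6.17, Ptch1 at 2.65, Ctnnb1 at 2.48) and 2 lower (Wnt5a at -3.00, Fzd2 at -2.69). Wif1 was on in 9 of 12 Ibsp-high and 2 of 30 other cells, so it too was seen mostly in the class compared. Of 8 osteocyte genes tested, Fam20c (3.54), Phex (3.29) and Npnt (2.24) were higher and Capg (-2.66) lower, and Dmp1 differed by only 0.44. Among 6 tested regulators of otic mesenchyme, 0 were higher and Tbx18 was lower (-3.33).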

How the data were processed

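Libraries were made from single cells with SMART-Seq v4 and ThruPLEX kits, per the labels' protocols. The submitters' processing notes name STAR 2.7.3a, bcl2fastq 2 and the builds GRCm38 and mm10. How reads were counted, on which annotation and whether by strand is not stated. The authors deposited CPM, which summed over the listed genes to 86.4% to 93.5% of a full library. Every CPM above 0 (100%) was a whole number of reads, within 0.01 read. There are no molecular identifiers, so intervals and limits cover counting error only. With 1 sample the recovered reads allow no count test.

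The 7 factors and all lists were chosen with earlier results of these data known. A factor was on at 10 CPM. Differences are of mean log2(CPM + 1), which understates low genes, over 11447 genes at 1 CPM in at least 5 cells, with a size of 2. Intervals are exact Clopper-Pearson (95%), and a count of 0 allows up to 3 reads. Named were all factors, up to 6 genes past the size per list (otherwise 3 by mean), the 5 most like genes by Spearman's correlation for factors on in at least 10 cells, paralogs that were on, and cells with Ibsp below 1000 CPM that had Sp7, Runx2 or at least 2 factors on. The result of 1 gene that this rule names is not reported here. Of 209 list symbols 205 matched. Places and lengths are from GENCODE M21. The steps were tested on simulated data (python 3.11.15, pandas 2.3.3, scipy 1.17.1). No doublet caller was run, because cells were picked singly.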

Additional observations from a re-analysis of the deposited data

How the results depend on the processing

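Other limits for calling a factor on changed the counts of most factors. Runx2 was on in 16 cells at 1 CPM and 13 at 100 CPM, and Dlx5 in 16 and 12, against 14 for each at 10 CPM. Runx2, Sp7 and Dlx5 were all on in 13 cells at 1 CPM and 10 at 100 CPM, against 11. At 1 CPM Sp7 was on in 25 cells, 9 of them between 1 and 2.83 CPM. At 100 CPM Dlx6 was on in 0 cells and Msx2 in 0 cells. The count of cells with at least 3 factors and Ibsp below the threshold was 2, and became 4 with factors on at 1 CPM, 1 at 100 CPM, 1 with an Ibsp threshold of 100 CPM and 1 without cell 42, an alternative added after seeing the data. The pseudocount set how many genes passed the size between Ibsp classes. With 0.1 there were 1481 higher and 925 lower, with 10 there were 179 higher and 124 lower, against 716 and 448. Dlx5 differed by 5.38 to 9.84, Sp7 by 5.29 to 8.13, Runx2 by 4.01 to 7.27 and Dlx6 by 1.17 to 5.15 over the alternatives run, so Dlx6 fell under the size with a pseudocount of 10. With reads thinned to 3522422 in 42 cells, Runx2, Sp7 and Dlx5 were all on in 9 cells. The 4 cells left out include 2 Ibsp-high cells, 5 and 8, which both had all 3 factors on. The count before thinning was 11, so the change to 9 came from leaving these 2 cells out and not from lower depth. Depth limits a factor with 0 reads to below 3 reads, and says nothing of RNA lost before amplification. No paired analysis was possible because the labels give 1 group.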

Other observations

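Msx3, a paralog of Msx1 and Msx2 best known from the dorsal neural tube, was on in 7 of 46 cells, more than Msx1 and Msx2. Its values there were 87.6 to 670 CPM with a median of 311 CPM, and it was at or below 2.75 CPM in all other cells. All 7 were among the 9 cells with the fibrocyte gene Otos at 1000 CPM or more, and 0 of the 7 had any of the osteoblast lineage factors on. The 2 Otos cells without it were cell 26 at 0.262 CPM and cell 31 at 2.75 CPM. The comparison with Otos was made after the values had been seen.

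Other relatives of the factors had patterns of their own. Runx1, the family member of blood cells, was on in 12 cells, which were 4 of 12 Ibsp-high, 5 of 30 other and 3 of 4 macrophage-marked cells, with a highest value of 1038 CPM in cell 8. Runx3 was on only in cell 5, at 55.9 CPM. Sp1, Sp2, Sp3 and Sp4 were on in 13, 23, 20 and 5 cells, while Sp5, Sp6, Sp8, Dlx1 and Dlx4 had no read in any cell.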
